A study of Homo sapiens with 6 samples.

Results

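The AP-1 transcription factor genes were followed in L3.6pl cells, a long-established line from a human pancreatic tumour, as a set of 10 genes: FOS, FOSB, FOSL1, FOSL2, JUN, JUNB, JUND, ATF3, BATF3 and MAFF. Each was found by its symbol as 1 row among the 23273 rows of the expression tables, and all 10 reached the level needed for testing, a mean of 0.5 FPKM or more. FPKM counts sequenced fragments relative to transcript length and library size, so that levels of different genes can be set side by side. The parental group held 3 libraries of cells with the genotype WT, and the other group held 3 libraries of cells with the genotype ARID1A-deficient, titled as a knockout (ko). Both were grown in MEM with fetal calf serum and received no drug. The labels do not say how ARID1A was disrupted, whether the deficient cells were 1 clone, or whether the triplicates were separate cultures. P-values therefore measure only the spread between these libraries, which may be technical, and effects of ARID1A loss and of other differences between the cells cannot be told apart.

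AP-1 is a dimer of basic leucine zipper proteins that binds short DNA elements such as TGANTCA. FOS proteins cannot pair with themselves and bind DNA with a JUN partner, whereas JUN proteins can also pair with each other. The genes are known for fast induction by growth factors, serum and stress through MAP kinases, and in epithelial cancers AP-1 is linked to matrix proteases, inflammatory cytokines and invasion. ARID1A belongs to the SWI/SNF remodelling complex, which opens chromatin at enhancers, and AP-1 sites are common in such enhancers.

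The reference sequences upstream of the 4 genes that changed are shown first, since AP-1 genes are classically controlled in part by elements close to their starts. They are the 250 bases before the RefSeq start of each gene in build GRCh38.p14, written in the direction of transcription. They cover chr14:75278578-75278827 for FOS on the plus strand, chr2:28392608-28392857 for FOSL2 on the plus strand, chr1:58784048-58784297 for JUN on the minus strand and chr22:38201744-38201993 for MAFF on the plus strand. Capitals mark every match to TGANTCA, TGACGTCA or TGACATCA, and every match to the TATA element (TATAAA), to the CCAAT box or to the CArG box (the element bound by SRF), searched on both strands.
FOS: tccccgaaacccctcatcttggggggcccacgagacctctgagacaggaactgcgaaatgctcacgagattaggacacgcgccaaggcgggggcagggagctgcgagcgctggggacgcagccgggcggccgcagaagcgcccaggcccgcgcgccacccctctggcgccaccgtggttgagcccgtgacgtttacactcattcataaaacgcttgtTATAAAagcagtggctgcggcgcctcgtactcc
FOSL2: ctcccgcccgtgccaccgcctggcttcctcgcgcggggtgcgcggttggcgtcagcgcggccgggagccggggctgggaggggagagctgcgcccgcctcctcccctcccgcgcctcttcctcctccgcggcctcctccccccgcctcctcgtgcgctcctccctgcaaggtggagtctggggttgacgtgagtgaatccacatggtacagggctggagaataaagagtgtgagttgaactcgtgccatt
JUN: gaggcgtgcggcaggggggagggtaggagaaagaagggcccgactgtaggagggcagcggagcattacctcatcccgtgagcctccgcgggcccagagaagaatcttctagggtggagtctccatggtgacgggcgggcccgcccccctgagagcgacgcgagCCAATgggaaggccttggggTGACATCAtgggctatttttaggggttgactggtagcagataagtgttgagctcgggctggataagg
MAFF: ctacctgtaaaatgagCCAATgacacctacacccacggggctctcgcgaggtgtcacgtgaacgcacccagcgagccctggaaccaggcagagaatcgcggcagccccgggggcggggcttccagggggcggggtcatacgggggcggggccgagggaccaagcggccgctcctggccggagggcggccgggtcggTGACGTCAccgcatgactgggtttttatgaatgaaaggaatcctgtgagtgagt

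In FOS a TATAAA lies 28 to 33 bases before the start, and in JUN a TGACATCA lies 60 to 67 bases before it. In MAFF a TGACGTCA, the full element bound by CREB and ATF proteins, lies 47 to 54 bases before the start, and the FOSL2 window held none of the 6 motifs. The RefSeq table held 8 of the 10 genes, not FOSL1 and BATF3. Of these 8, TGACATCA was found in JUN and ATF3, TGACGTCA in JUND and MAFF, TATAAA in FOS, FOSB and JUNB, CCAAT in JUN, JUNB, JUND, ATF3 and MAFF, and TGANTCA and the CArG box in 0. Among 35116 promoter windows of the same length, TGACATCA was present in 2.37%, TGACGTCA in 1.65%, TATAAA in 10.7%, CCAAT in 32%, TGANTCA in 6.57% and the CArG box in 1.16%. No marked matches overlap each other. These are matches of letters and do not show binding. Only 1 window was taken per gene. Any other starts, sequence farther upstream and variants of these motifs were not searched. A count of 0 therefore does not show that a gene lacks such an element.

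The libraries summed to between 576084 and 792187 FPKM, both ends belonging to parental libraries, and the depth behind them is unknown. ARID1A itself measured 6.76 to 11.8 FPKM in parental and 3.28 to 3.61 FPKM in deficient libraries (limma adjusted p = 0.00610), so the labels match the transcript, which was still measurable. Of 6 epithelial markers none passed limma, with 4 lower at an unadjusted p under 0.05, and their sum was 6286 to 9831 FPKM in parental and 4527 to 5723 FPKM in deficient libraries. Of 10 fibroblast markers 3 were tested and rose (COL1A1, COL1A2 and COL3A1). The sum of the list was 21.3 to 24.2 FPKM in parental and 176 to 190 FPKM in deficient libraries, nearly all from these collagen genes. COL1A2 averaged 0.092 FPKM in parental and 43.1 FPKM in deficient libraries. It reached the level needed for testing only through the deficient libraries. PDGFRA, PDGFRB, SPARC, THY1 and FAP were too low to test. The highest of them by mean, PDGFRA, averaged 0.0365 FPKM in parental and 0.238 FPKM in deficient libraries. All 6 libraries list 0 for DCN and LUM of that list, but also for the tubulin gene TUBB, which cells in general use, so a listed 0 can be a failed estimate. Of 8 leukocyte markers 1 was tested and was lower (CD68), with CD3D, MS4A1 and ITGAM listed at 0, and of 5 endothelial markers 2 were tested and 1 was lower (PECAM1). The sums of these lists were 8.51 to 9.87 against 5.95 to 7.72 FPKM and 8.45 to 10.0 against 8.66 to 9.23 FPKM. The part of these markers in the AP-1 results was not tested. Fewer cells of a type and less RNA per cell cannot be told apart in such bulk libraries.

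Of the 10 AP-1 genes, FOS, FOSL2 and JUN were lower in ARID1A-deficient cells, MAFF was higher and 6 did not pass the test. The test was limma on log2(FPKM + 1), fitted over 12826 genes with Benjamini-Hochberg adjustment and a threshold of 0.05, and it called 15.9% of all genes, 7.82% higher and 8.11% lower. With quantile normalization or upper quartile scaling, 2 AP-1 genes were higher and 3 lower. With 1 library left out, the count over all genes ran from 964 without ARID1A-deficient library 3 to 4079 without parental library 2, and was 1019, 1275 and 1082 without parental library 3 and ARID1A-deficient libraries 1 and 2. Past the test and at least 2-fold on the log2 scale were 3 of the 10 (FOS, FOSL2 and MAFF), against 3.48% of all genes. The 2 groups did not overlap for 5 of the 10, 2 higher (JUNB and MAFF) and 3 lower, against 35.3% of all genes, 16.7% higher and 18.6% lower. The median log2 fold change was 0.016 over the 10 and -0.015 over all tested genes. The 10 genes were chosen with earlier results of these data known, so these shares do not test the set. The calls of FOS, FOSL2 and MAFF held under each of the 14 other settings tried.

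**Figure D1:**
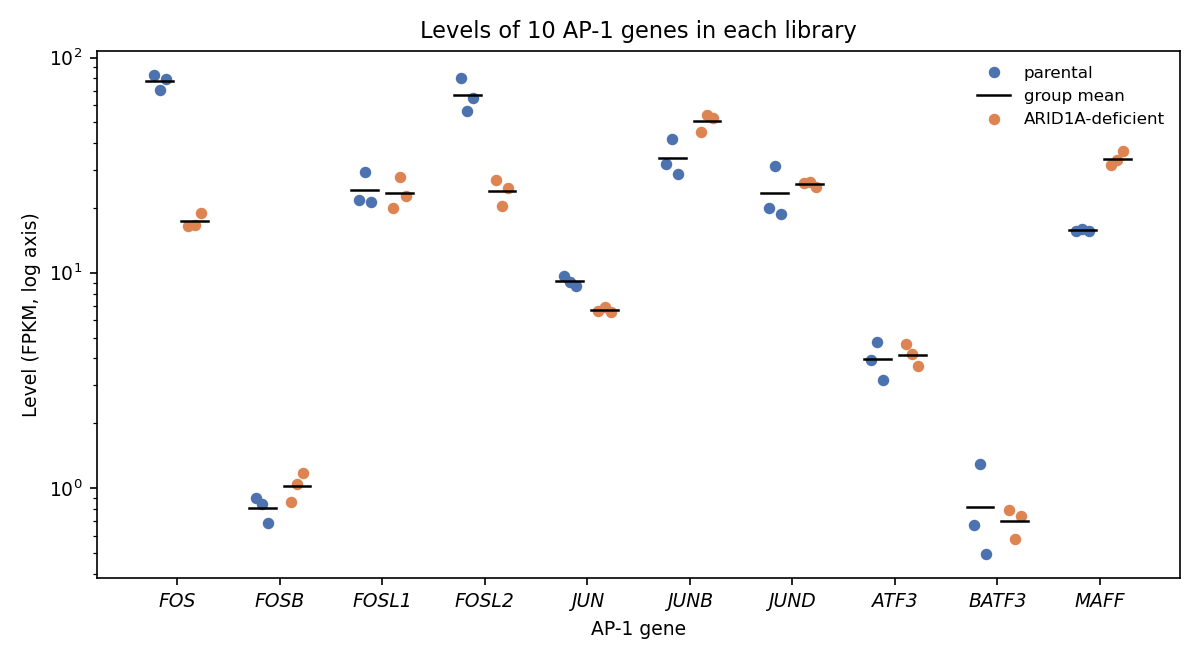
Level of each AP-1 gene in FPKM on a log axis, with 1 point per library (blue, 3 parental; orange, 3 ARID1A-deficient) and a bar at each group mean. The points of the 2 groups are apart for FOS, FOSL2, JUN, JUNB and MAFF and overlap for the other 5 genes.

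Among the FOS family, FOS, the classical immediate early partner of JUN, measured 83.2, 70.4 and 79.1 FPKM in parental libraries 1, 2 and 3. In the deficient libraries, in the same order, it measured 16.5, 16.7 and 18.9 FPKM. All deficient libraries lay far below all parental ones. Group means of 77.6 ± 6.52 and 17.4 ± 1.36 FPKM (SD, n = 3 each) set FOS 4.46-fold lower, and its log2 fold change was -2.09 ± 0.10 (SE; limma adjusted p = 3.87e-05). By log2 fold change FOS ranked 35 among the 1040 genes called lower. Over the 14 other settings its log2 fold change stayed between -2.16 and -2.04.

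FOSL2, which encodes the more slowly induced FOS relative FRA-2, measured 80.3, 56.3 and 64.8 FPKM in parental and 27, 20.5 and 24.8 FPKM in deficient cells. Library 2 was the lowest of each group, and the groups were apart. FOSL2 was 2.79-fold lower, with means of 67.1 ± 12.2 and 24.1 ± 3.30 FPKM (SD, n = 3 each), and its log2 fold change was -1.43 ± 0.16 (SE; limma adjusted p = 0.00154). It ranked 73 among the genes called lower. The 40 nearest tested genes on chromosome 2, 20 on each side in RefSeq order, also leaned lower, with a median log2 fold change of -0.32. Of these 40, 12 were called lower and 0 higher, against 8.11% and 7.82% of all genes. The part of this stretch in the FOSL2 value was not tested. Around FOS on chromosome 14 the median of 40 neighbours was -0.017, with 1 called lower and 0 higher. Around JUN on chromosome 1 it was 0.022, with 2 called lower and 4 higher. Around MAFF on chromosome 22 it was 0.036, with 3 called lower and 5 higher.

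FOSL1, which encodes FRA-1, a FOS protein often abundant in RAS-driven carcinoma cells, measured 21.9, 29.5 and 21.3 FPKM in parental and 20.1, 27.7 and 22.7 FPKM in deficient libraries. The ranges overlapped almost completely, and library 2 was the highest in both groups. Its log2 fold change was -0.038 ± 0.16 (SE; limma adjusted p = 0.912), and its sign turned when parental library 2 (0.11) or deficient library 1 (0.064) was left out. FOSB, an inducible FOS relative, was low, at 0.898, 0.845 and 0.685 FPKM against 0.863, 1.04 and 1.17 FPKM. Its groups overlapped, and its log2 fold change was 0.16 ± 0.10 (SE; limma adjusted p = 0.343). At such low levels the added 1 FPKM shrinks a fold change, and with a pseudocount of 0.1 it was 0.30.

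The 4 FOS genes together summed to 186, 157 and 166 FPKM in parental cells and to 64.5, 65.9 and 67.6 FPKM in the deficient libraries. The sum was thus lower in every deficient library. The make-up of the sum also differed: FOS held 45.7 ± 1.70% of it in parental and 26.3 ± 1.49% in deficient libraries (SD, n = 3 each). FOSL1 held 14.4 ± 3.79% and 35.6 ± 5.71%, without a call for its own level. FOSL2 held 39.3 ± 3.65% and 36.5 ± 5.39%, within the spread of the libraries. In parental cells FOS was the highest of the 10 AP-1 genes in each library, and in deficient cells it was sixth in each library, below FOSL2 and FOSL1.

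**Figure D2:**
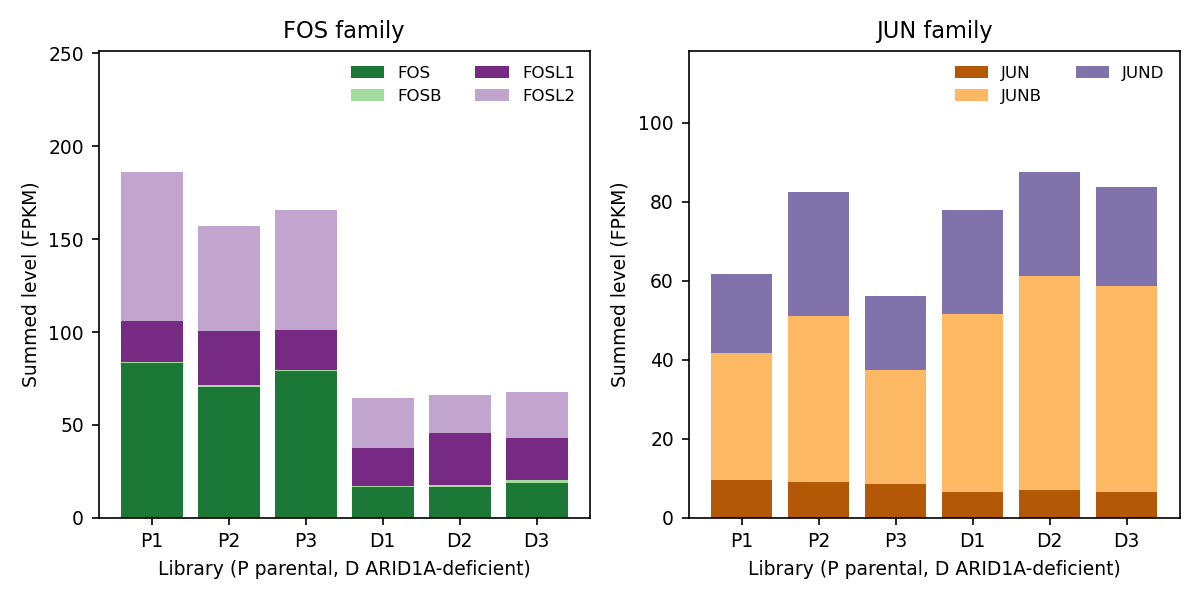
Summed FPKM of the FOS family (left) and JUN family (right) in each library (P1 to P3 parental, D1 to D3 ARID1A-deficient), with each gene as a coloured part of the bar. FOS family sums were 157 to 186 FPKM in parental and 64.5 to 67.6 FPKM in deficient libraries, while JUN family sums overlapped.

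Of the JUN family, JUN, the founding member and a strong activator, measured 9.63, 9.09 and 8.65 FPKM in parental and 6.65, 6.97 and 6.56 FPKM in deficient libraries. The groups were apart, but the difference was small. JUN was 1.36-fold lower, at means of 9.12 ± 0.493 and 6.72 ± 0.215 FPKM (SD, n = 3 each), and its log2 fold change was -0.39 ± 0.084 (SE; limma adjusted p = 0.0226). The call was lost when parental library 1 or 3, or any one of the deficient libraries, was left out (adjusted p = 0.0651, 0.0750, 0.0737, 0.0771 and 0.108), with log2 fold changes from -0.42 to -0.35.

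JUNB, often a weaker activator than JUN and able to replace it in dimers with FOS, measured 32, 42 and 28.8 FPKM in parental and 45, 54.3 and 52.1 FPKM in deficient libraries. Every deficient library lay above every parental one, the closest pair being parental library 2 and deficient library 1. Group means were 34.3 ± 6.87 and 50.5 ± 4.87 FPKM (SD, n = 3 each), and the log2 fold change was 0.56 ± 0.15 (SE), but JUNB did not pass (limma adjusted p = 0.0527). Settings in which it passed included leaving out parental library 2 (log2 fold change 0.71, adjusted p = 0.00178), quantile normalization (adjusted p = 0.0143), upper quartile scaling (adjusted p = 0.0209) and the length covariate (adjusted p = 0.00905). That covariate is each library's slope of log2 values on log2 transcript length, which was lowest in parental library 2, at -0.0485, and highest in parental library 1, at 0.0521. Without other single libraries JUNB did not pass, with adjusted p up to 0.182.

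JUND, the most steadily expressed JUN gene in most cells, measured 20.03, 31.5 and 18.7 FPKM in parental and 26.2, 26.3 and 25.0 FPKM in deficient libraries. Parental library 2 stood above all others, and the other 2 parental libraries stood below every deficient library. The log2 fold change was 0.17 ± 0.19 (SE; limma adjusted p = 0.597), and 0.40 without parental library 2, where it passed (adjusted p = 0.00858).

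The 3 JUN genes summed to 61.7, 82.6 and 56.1 FPKM in parental and to 77.9, 87.6 and 83.7 FPKM in deficient libraries, which overlap. JUNB was the largest part in both groups, with 51.4 ± 0.534% and 60.7 ± 2.53% of the sum, and JUN the smallest, with 14 ± 2.60% and 8.11 ± 0.377% (SD, n = 3 each). The FOS family sum divided by the JUN family sum was 3.02, 1.90 and 2.95 in the parental and 0.828, 0.752 and 0.808 in the deficient libraries. FOS transcripts thus outweighed JUN transcripts in each parental library and were outweighed by them in each deficient library. This compares transcripts per length, not proteins or dimers.

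ATF3, a stress-induced member that can repress as a homodimer, measured 3.91, 4.77 and 3.17 FPKM in parental and 4.65, 4.18 and 3.68 FPKM in deficient libraries. The groups overlapped, and the log2 fold change was 0.070 ± 0.15 (SE; limma adjusted p = 0.800), or -0.047 without parental library 3. BATF3, a JUN partner known from dendritic cell development, was near the lower limit, at 0.673, 1.29 and 0.494 FPKM against 0.791, 0.577 and 0.738 FPKM. Parental library 2 was again the highest. The BATF3 log2 fold change was -0.073 ± 0.17 (SE; limma adjusted p = 0.818), and 0.10 without that library.

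MAFF, a small MAF protein without an activating domain of its own, measured 15.6, 16.0 and 15.7 FPKM in parental and 31.7, 33.4 and 36.6 FPKM in deficient libraries. The parental values lay within a narrow range, and every deficient value lay well above it. The rise was 2.15-fold between means of 15.8 ± 0.242 and 33.9 ± 2.51 FPKM (SD, n = 3 each), and the log2 fold change was 1.06 ± 0.083 (SE; limma adjusted p = 0.000338). It was sixth of the 10 genes by level in each parental library and second, after JUNB, in each deficient library. Its log2 fold change was 1.10 at most and 0.9997 at least in the other settings.

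By mean level the order in parental cells was FOS, FOSL2, JUNB, FOSL1, JUND, MAFF, JUN, ATF3, BATF3 and FOSB. Ranges were compared only between genes next to each other in an order. In parental cells they overlapped between FOS and FOSL2, between JUNB and FOSL1, between FOSL1 and JUND, and between BATF3 and FOSB. In deficient cells the order was JUNB, MAFF, JUND, FOSL2, FOSL1, FOS, JUN, ATF3, FOSB and BATF3. There the ranges of genes next to each other overlapped between JUND and FOSL2 and between FOSL2 and FOSL1. JUN and ATF3 kept places 7 and 8 in every library.

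**Figure D3:**
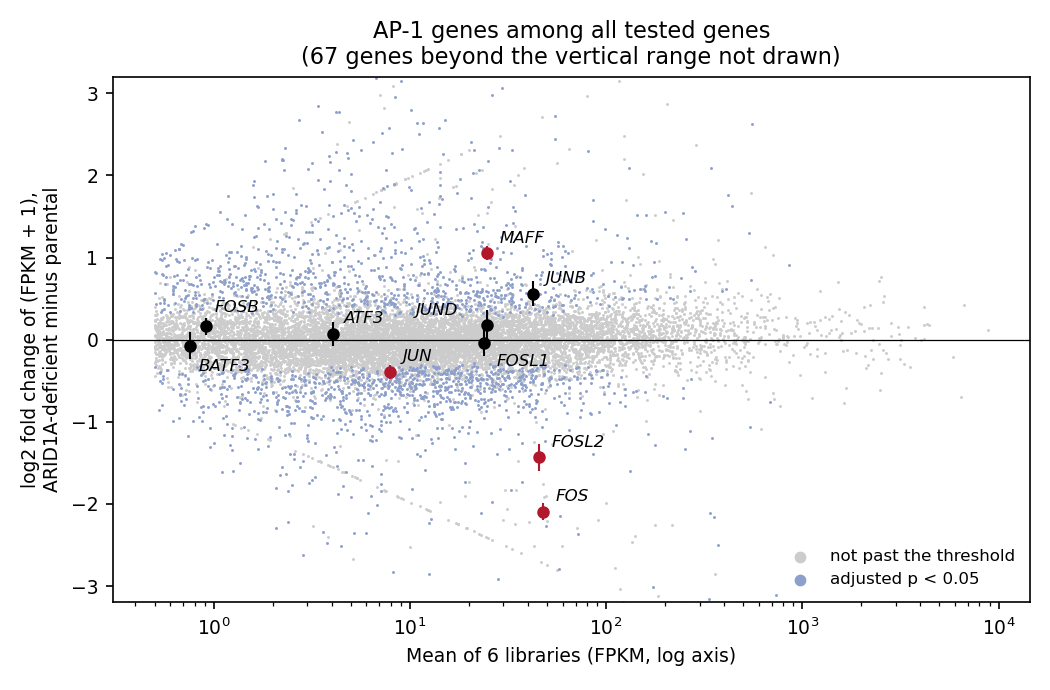
Mean level over the 6 libraries (FPKM, log axis) against log2 fold change for each of the 12826 tested genes, with the 10 AP-1 genes as large points with standard errors (red, adjusted p under 0.05; black, not past it). FOS and FOSL2 lie far below 0 and MAFF at 1.06, while 67 genes beyond the vertical range are not drawn.

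**Figure D4:**
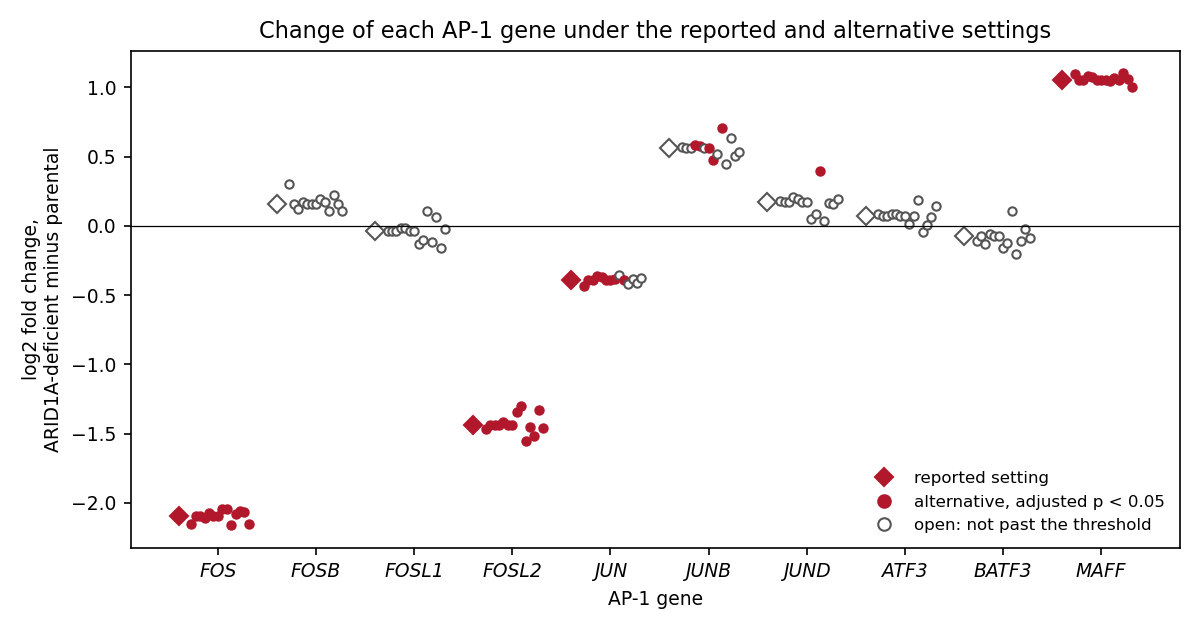
Log2 fold change of each AP-1 gene under the reported setting (diamond) and up to 14 alternatives (circles), filled where adjusted p was under 0.05. FOS, FOSL2 and MAFF are filled throughout, JUN is open without any of 5 single libraries, and JUNB is filled in 5 alternatives.

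The genes whose pattern over the 6 libraries was most like that of a changed AP-1 gene were sought among the 9849 genes that averaged 3 FPKM or more, by the root mean square difference of centred log2(FPKM + 1) values. For FOS they were SEMA3F (difference 0.0890) and ACSL5 (0.0932), and for FOSL2 they were AFAP1L2 (0.105) and APOL6 (0.105). JUN was nearest to NAT10 (0.0275) and RBM23 (0.0322), and MAFF to ACCN2 (0.0410) and CCDC64 (0.0498). SEMA3F, a secreted semaphorin gene, measured 11.6 ± 0.169 and 2.11 ± 0.199 FPKM (SD, n = 3 each). ACSL5, a fatty acid CoA ligase gene, measured 10.6 ± 0.107 and 1.69 ± 0.0179 FPKM (SD, n = 3 each).

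The rest of the pathway was read from 7 lists of genes. Other bZIP genes of the AP-1 family showed 0 of 7 tested genes past limma in either direction, with 0 at an unadjusted p under 0.05, and their median log2 fold change was 0.047. Among them MAFK, another small MAF gene, named after its values were seen, measured 19.1 ± 0.345 and 21.5 ± 0.558 FPKM (SD, n = 3 each, limma adjusted p = 0.180). BATF was listed at 0 in every library, which can be a failed estimate, as with TUBB. Among the proteins that pair with small MAFs, 1 of 4 tested genes rose and 1 fell, against 7.82% of all genes higher and 8.11% lower. NFE2L2, which encodes the oxidative stress factor NRF2, rose 2.14-fold, from 39.3 ± 5.13 to 83.9 ± 6.57 FPKM (limma adjusted p = 0.00192). NFE2L3, a related factor, fell 1.38-fold (limma adjusted p = 0.0417), a call that ended without any single library other than parental library 2 (highest adjusted p = 0.164) and also with quantile normalization, upper quartile scaling, no filter, or neither trend nor robust moderation (adjusted p = 0.0563, 0.0961, 0.0532 and 0.0555). Without parental library 2, 2 of the 4 fell.

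Of the kinases upstream of AP-1, 2 of 15 tested genes fell, none rose in the limma test (1 higher at an unadjusted p under 0.05) and 13 did not pass, with a median log2 fold change of -0.21. Over all genes 8.11% were called lower and 15.9% in either direction, so the kinase count lay near the background. RPS6KA1, a kinase activated by ERK, was 1.5-fold lower, at 26.4 ± 1.61 against 17.5 ± 1.38 FPKM (limma adjusted p = 0.00773). MAPK3, which encodes ERK1, was 1.71-fold lower, at 48.5 ± 9.10 against 28.3 ± 2.71 FPKM (limma adjusted p = 0.0161). The MAPK3 call ended without ARID1A-deficient library 1 or 3 (adjusted p = 0.0641 and 0.0751), so that 1 kinase was lower, and 5 were lower without parental library 2. Of 8 nuclear activators such as SRF and the ELK factors, MEF2D alone passed in the limma test, rising 1.60-fold from 7.19 ± 0.0808 to 11.5 ± 0.143 FPKM (limma adjusted p = 0.00236), against 7.82% of all genes called higher. The other 7 did not pass, with 3 lower without parental library 2. Of 8 tested MAP kinase phosphatases, which switch the kinases off, 2 rose, against 7.82% of all genes: DUSP7 1.37-fold and DUSP5 1.42-fold (limma adjusted p = 0.0189 and 0.0335). Both calls were lost when parental library 3 or any one deficient library was left out, and that of DUSP5 also without parental library 1 (highest adjusted p = 0.128), and 1 phosphatase was lower without parental library 2.

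Other immediate early genes, which can be induced by the same stimuli as FOS, had 10 of 16 tested genes higher and 0 lower. The other 6 did not pass, against 7.82% of all genes higher and 8.11% lower. The lower count was also 0 at an unadjusted p under 0.05 and was 1 without parental library 2, and the higher count was 6 without parental library 3. The median log2 fold change was 0.55. This list too was chosen with earlier results of these data known, and what lay behind the rises was not tested. CYR61, a matricellular protein gene, rose 5.70-fold from 16.5 ± 0.929 to 93.8 ± 4.10 FPKM (limma adjusted p = 1.04e-05), and SGK1, a serum-induced kinase gene, rose 5.51-fold from 8.75 ± 0.711 to 48.2 ± 3.62 FPKM (limma adjusted p = 1.95e-05). The growth arrest genes GADD45B and GADD45A rose 2.24-fold and 1.97-fold, and NR4A2, an orphan nuclear receptor gene, rose 2.74-fold (limma adjusted p = 0.00101, 0.00128 and 0.00323). EGR1, chosen after its values were seen as the zinc finger gene most often read beside FOS, measured 13.6, 10.3 and 10.9 FPKM in parental and 12.4, 11.7 and 14 FPKM in deficient libraries (limma adjusted p = 0.569). IER3 was listed at 0 in every library, which can be a failed estimate, as with TUBB.

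Of 15 tested genes known as AP-1 targets, 9 were higher and 1 was lower, and 5 did not pass, against 7.82% of all genes higher and 8.11% lower. Their median log2 fold change was 0.76. Most of them are also controlled by other factors, and many were among the changed genes already known in these data. IL8, a neutrophil chemokine gene, rose 6.25-fold from 1.39 ± 0.152 to 8.66 ± 0.721 FPKM (limma adjusted p = 5.26e-05), and LIF, a cytokine gene of the interleukin 6 family, rose 3.08-fold from 16.7 ± 0.735 to 51.6 ± 2.59 FPKM (limma adjusted p = 5.47e-05). PLAU, the urokinase gene, rose 2.05-fold and HBEGF, an EGF receptor ligand gene, rose 1.93-fold (limma adjusted p = 0.000478 and 0.000586). CCL2, a monocyte chemokine gene, was listed at 0, 0.153 and 0 FPKM in parental libraries and at 2.36, 2.31 and 1.66 FPKM in deficient libraries. CCL2 reached the mean of 0.5 FPKM needed for testing only through the deficient libraries. Its place among the 9 higher targets and in the median therefore rests on that filter. MMP1, a collagenase gene and textbook AP-1 target, was named after its values were seen. It measured 183, 199 and 191 FPKM in parental and 361, 356 and 346 FPKM in deficient libraries (limma adjusted p = 0.00365). VEGFA, the lone target that fell, was also named after its values were seen and measured 55.9 ± 7.79 and 30.8 ± 2.16 FPKM (SD, n = 3 each, limma adjusted p = 0.00556). It fell 1.81-fold, and 2 targets were lower without parental library 2.

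**Figure D5:**
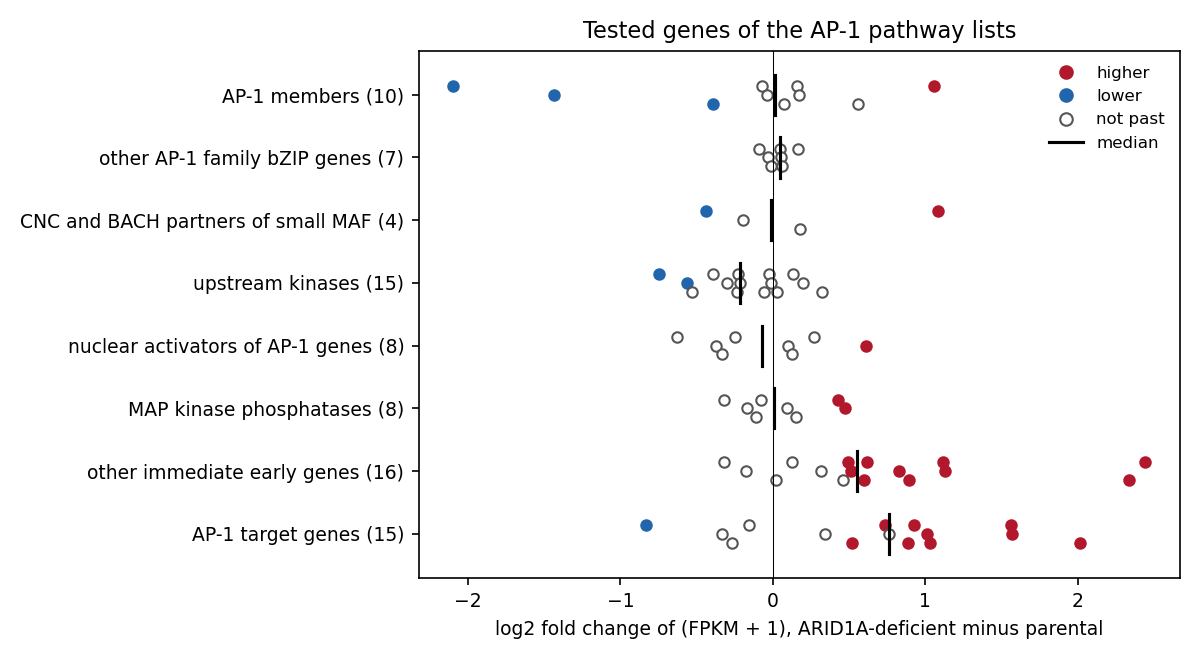
Log2 fold change of each tested gene in the AP-1 genes and the 7 other lists, with the number tested in brackets, red points higher, blue points lower and open points not past the threshold, and a black bar at each median. The medians of the other immediate early genes and of the target genes are 0.55 and 0.76, and that of the 10 AP-1 genes is 0.016.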

How the data were processed

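Messenger RNA was measured in 6 libraries of L3.6pl cells, 3 parental and 3 ARID1A-deficient, grouped by their titles. The authors deposited 1 table of FPKM values per library. The submitters' processing notes name TopHat2 2.1.1 and list Cuffnorm 2.2.1.2 as well as Cuffdiff 2.2.1.5, with build GRCh37 (hg19). The gene annotation, the filters, the scaling and the fragment totals were not given in the sources, so precision rests on the spread between libraries. Per the labels' protocols, the libraries were made from bead-captured mRNA with a TruSeq version 2 kit. Reads of overlapping antisense genes are not told apart.

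Of 23273 rows, 28 with date-like symbols were left out. Genes averaging 0.5 FPKM or more were tested with limma 3.58.1 (R 4.3.3, trend and robust moderation, two-sided) on log2(FPKM + 1), group as the only term. The procedure was tested on simulated data. Fold changes are ratios of group means, and log2 fold changes refer to log2(FPKM + 1), a scale that shrinks changes of low genes. Alternatives were a pseudocount of 0.1, no filter, a minimum mean of 3 FPKM, 2 normalizations, limma with neither trend nor robust moderation, a replicate block, a transcript length covariate and leaving out each library. Transcript length was the longest GENCODE transcript of a symbol. The AP-1 genes and lists were chosen with earlier results of these data known. Named are ARID1A, the 10 genes, up to 5 called genes with the smallest adjusted p per list and the 2 genes most like each changed AP-1 gene. Other genes with values are cell type markers, are listed at 0 in every library, or are marked in the text as picked with their values in view. A gene of the leukocyte marker list is not reported here. Promoter sequences are from RefSeq, GRCh38.p14.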

Additional observations from a re-analysis of the deposited data

How the results depend on the processing

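The calls of FOS, FOSL2 and MAFF held in all 14 alternatives. The number of lower AP-1 genes was 3 in the 8 alternatives with all libraries and 2 to 3 with 1 library left out; that of higher ones was 1 to 3 with 1 left out. With 1 left out, the log2 fold change of JUN ran from -0.42 to -0.35, JUNB from 0.45 to 0.71, JUND from 0.037 to 0.40, FOSL1 from -0.16 to 0.11 (0.11 without parental library 2 and 0.064 without ARID1A-deficient library 1), ATF3 from -0.047 to 0.19 (-0.047 without parental library 3) and BATF3 from -0.20 to 0.10 (0.10 without parental library 2). The changed genes numbered 964 to 4079, 531 to 1982 higher and 433 to 2097 lower. In the lists the ranges were 0 to 2 lower small MAF partners, 1 to 5 lower kinases, 0 to 3 lower nuclear activators, 0 to 2 higher and 0 to 1 lower phosphatases, 6 to 11 higher and 0 to 1 lower immediate early genes, and 1 to 2 lower targets.

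With the replicate block, 4049 genes changed, 1861 higher and 2188 lower, and 2 AP-1 genes were higher since JUNB passed (0.56, adjusted p = 0.000438). In that block fit 1 kinase was higher and 5 lower, 3 nuclear activators, 1 phosphatase and 1 immediate early gene were lower, and 2 targets were lower. Deviations of same-numbered libraries correlated across 12826 genes at 0.219, 0.217 and -0.0131. Libraries 1 and 2 of each group correlated best with their own number, and library 3 of neither group did. With 3 libraries per group, these values do not settle whether the numbers pair the samples. With the length covariate, 4148 genes changed, 1852 higher and 2296 lower. There 2 AP-1 genes were higher (JUNB 0.47), as were 2 small MAF partners, 2 kinases and 2 nuclear activators, and 5 kinases, 3 nuclear activators, 1 phosphatase and 3 targets were lower. With quantile normalization 2 AP-1 genes were higher (JUNB 0.58), 0 small MAF partners lower, 1 kinase higher, and 2 nuclear activators and 2 targets lower. Upper quartile scaling gave 2 higher AP-1 genes (JUNB 0.58) and 0 lower small MAF partners. With no filter 0 small MAF partners were lower, and when 3 FPKM on average was required, 667 were higher among fewer genes tested (9849), and FOSB and BATF3 were not tested. With neither trend nor robust moderation 0 small MAF partners were lower, 1 kinase higher and 2 targets lower. The cause of the other changes was not tested.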
